A study of Mus musculus with 28 samples.

Results

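The genes described here are 10 chains of interstitial collagens that do not form the large striated fibrils: *Col6a1*, *Col6a2*, *Col6a3*, *Col8a1*, *Col8a2*, *Col12a1*, *Col14a1*, *Col15a1*, *Col16a1*, and *Col18a1*. They were chosen by symbol, and each matched 1 of the 56980 genes of the bulk table and 1 of the 32285 genes of the single-cell tables. All 10 passed the filter on low counts, which kept 12673 genes for testing. The study asked how a mouse jugular vein remodels after it has been joined to the carotid artery as an arteriovenous fistula (AVF). The animals were male and female C57BL/6 mice, and all of them, including those that gave the contralateral veins, had first undergone subtotal nephrectomy, so that every vessel came from a mouse with reduced kidney function. Bulk RNA sequencing covered 7 contralateral jugular veins, which were not operated on, and outflow veins of 8 early AVFs (labeled day 3), 5 mid AVFs (day 10), and 5 late AVFs (day 21), with a library for each vessel. Single-cell RNA sequencing covered 3 libraries, 1 per condition for contralateral, early, and late vessels, each made from pooled vessels of both sexes and carrying no day in its label.

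Collagen VI is built from an α1, an α2, and an α3 chain and forms beaded microfilaments that lie between cells and the surrounding matrix. Collagens XII, XIV, and XVI belong to the fibril-associated collagens with interrupted triple helices, which attach to the surface of collagen fibrils. Collagen VIII is a short-chain collagen that forms networks in vessel walls and under endothelium, and collagens XV and XVIII are multiplexins, proteoglycan-bearing collagens of the basement membrane zone whose C-terminal fragments (restin and endostatin) are known to act on endothelial cells.

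Promoter stretches are shown for the collagen VIII pair, the members with the largest fitted changes in mid and late AVFs, and for *Col18a1*, which was called in late AVFs and was most abundant in other cell classes. The windows run from 250 bases before to 50 bases after each listed transcript start, are taken from RefSeq on GRCm38.p6, and were available for 8 of the 10 members (10 windows). Of each window, the stretch before the start and outside annotated exons is printed, in the direction of the gene. Capitals mark matches, on either strand, to the core of the GC box (GGGCGG), to the TATA box (searched as TATAAA), to the AP-1 site (searched as TGACTCA), or to the CCAAT box. The reverse complement of the GC box core reads CCGCCC, and that of the last motif reads ATTGG.
Col8a1: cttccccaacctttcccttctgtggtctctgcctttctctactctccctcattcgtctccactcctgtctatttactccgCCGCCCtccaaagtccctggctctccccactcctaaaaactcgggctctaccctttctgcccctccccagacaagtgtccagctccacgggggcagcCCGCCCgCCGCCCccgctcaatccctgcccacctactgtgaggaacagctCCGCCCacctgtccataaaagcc
Col8a2: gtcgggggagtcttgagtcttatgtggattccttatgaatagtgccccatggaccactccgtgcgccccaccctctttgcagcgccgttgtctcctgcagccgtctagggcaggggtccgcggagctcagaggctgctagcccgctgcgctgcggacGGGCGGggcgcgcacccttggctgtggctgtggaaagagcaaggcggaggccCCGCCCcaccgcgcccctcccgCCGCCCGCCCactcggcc
Col18a1: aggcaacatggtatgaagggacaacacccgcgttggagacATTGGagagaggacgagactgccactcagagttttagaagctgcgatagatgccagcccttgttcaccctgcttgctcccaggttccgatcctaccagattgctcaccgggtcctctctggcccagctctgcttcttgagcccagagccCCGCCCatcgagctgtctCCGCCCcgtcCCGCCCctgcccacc
These stretches are chr16:57754738-57754987 (minus strand), chr4:126286544-126286792 (plus strand), and chr10:77166549-77166780 (minus strand). GGGCGG was found in the windows of 5 of the 8 members, against 35.7% of all 32851 windows. *Col8a1* held 4 matches, starting 170, 73, 66, and 23 bases before its start, and *Col8a2* also held 4, of which the pair starting 19 and 15 bases before its start overlap by 2 bases. CCAAT was found for 2 members, *Col16a1* and *Col18a1*, against 37.4% of all windows. TGACTCA was found for 1 member, *Col6a1*, starting 90 bases before its start, against 5.2% of all windows. TATAAA was found for 0 of 8 members, against 13.6% of all windows. These matches describe letters in a window and were not tied to the binding of any factor.

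The bulk libraries held 20254173 to 67457501 counts, and levels are given in CPM, each count relative to its scaled library size. Contralateral veins were the least alike, and pairs of them had a Spearman correlation of 0.678 at the median over genes, against 0.867, 0.956, and 0.953 in early, mid, and late AVFs. They also held the most gaps, with 363 to 2848 of the tested genes at 0 counts per library, against 14 to 595 in early and 10 to 38 in mid and late AVFs. Early AVFs 5 and 6 stood apart by depth, with 67457501 and 53097813 counts, and had 353 and 595 tested genes at 0. A gene was called when the adjusted *p* of edgeR's quasi-likelihood test was under 0.01 and the absolute log2 fold change at least 1. Of the 8 fibroblast markers below, 5, 1, and 1 were called lower in early, mid, and late AVFs against contralateral veins. Of the 8 markers of smooth muscle cells and pericytes it was 6, 4, and 4, and of the 8 endothelial markers 6, 6, and 5. Of all genes tested, 12.6%, 6.05%, and 5.33% were called in either direction. In bulk tissue, fewer cells of a type and less RNA per cell cannot be told apart. The summed level of 8 fibroblast markers was 10000 to 18400 CPM in contralateral veins, 1200 to 5690 in early, 5610 to 7490 in mid, and 6600 to 11600 in late AVFs. The 8 markers of smooth muscle cells and pericytes summed to 9790 to 21400, 1080 to 2640, 2090 to 2530, and 2570 to 4020 CPM in the same order, and the 8 endothelial markers to 2340 to 3920, 331 to 645, 521 to 744, and at most 848 CPM. No marker of these 3 lists was at 0 in all libraries of a group. The 6 skeletal muscle markers, of which 1 was at 0 in all contralateral veins, summed to 0.210 to 30.9 CPM in contralateral veins and up to 4020, 5810, and 7790 CPM in early, mid, and late AVFs. The part of these shifts in the levels below was not tested.

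Of the collagen VIII pair, *Col8a1* rose from near absence to one of the abundant chains of the set. The gene (ENSMUSG00000068196, chromosome 16, 57624258 to 57754737, minus strand, GRCm38) encodes the α1 chain. It lay between 0 and 29.5 CPM in contralateral veins, with a median of 0.394 CPM and 1 vein, 632, without a read. By read depth alone, a count of 0 there allows up to 0.117 CPM. That vein had 1988 of the tested genes at 0, so read depth may not bound its level. In early AVFs the lowest, median, and highest values were 38.5, 132, and 358 CPM. The 5 mid AVFs had 540, 331, 490, 268, and 631 CPM, and the 5 late AVFs 470, 629, 757, 597, and 572 CPM. Every AVF lay above every contralateral vein, and all late AVFs exceeded all early ones. Contralateral veins 27 and 633, at 29.5 and 13.7 CPM, were the ones with appreciable reads; the other 5 were at 1.09 CPM or less. Against contralateral veins, the early change was 4.52 on the log2 scale (SE 0.95, adjusted *p* = 0.000994). The mid change was 6.13 (SE 1.06, adjusted *p* = 0.000258), and the late change 6.55 (SE 1.08, adjusted *p* = 0.000191). These calls held in all 25 fits that left out a library, and ended when the sexes were fitted apart or when the groups compared were fitted alone (adjusted *p* up to 0.0623).

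*Col8a2* (ENSMUSG00000056174, chromosome 4, 126286793 to 126314330, plus strand), the α2 chain, was the scarcest member in most groups, and its fitted changes had the same direction. It lay between 0 and 14.0 CPM in contralateral veins (median 0.158) and between 0 and 28.8 CPM in early AVFs (median 6.82). Mid AVFs had 39.3, 20.1, 49.7, 43.3, and 25.1 CPM, and late AVFs 21.3, 46.3, 54.8, 26.1, and 41.5 CPM. All mid and late AVFs lay above all contralateral veins, whereas early AVFs ranged from 2 libraries at 0, the deeply sequenced 5 and 6, to 28.8 CPM in early AVF 10. By read depth alone, a count of 0 allows up to 0.0583 and 0.0809 CPM in those 2 libraries. They had 353 and 595 tested genes at 0, so read depth may not bound their levels. The log2 fold change against contralateral veins was 2.02 in early (SE 1.25, adjusted *p* = 0.268), 4.04 in mid (SE 1.43, adjusted *p* = 0.0635), and 4.14 in late AVFs (SE 1.43, adjusted *p* = 0.0603), so none passed the threshold. Contralateral vein 633 decided this value. It had 14.0 CPM where the other 6 had at most 0.491, and without it *Col8a2* was called at each time, at 5.64 in early (adjusted *p* = 0.00224), 7.67 in mid (adjusted *p* = 0.000559), and 7.77 in late AVFs (adjusted *p* = 0.000584). Per kilobase of exon, *Col8a2* stood at 0.0695 to 0.282 of *Col8a1* in mid and 0.0763 to 0.129 in late AVFs.

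**Figure D1:**
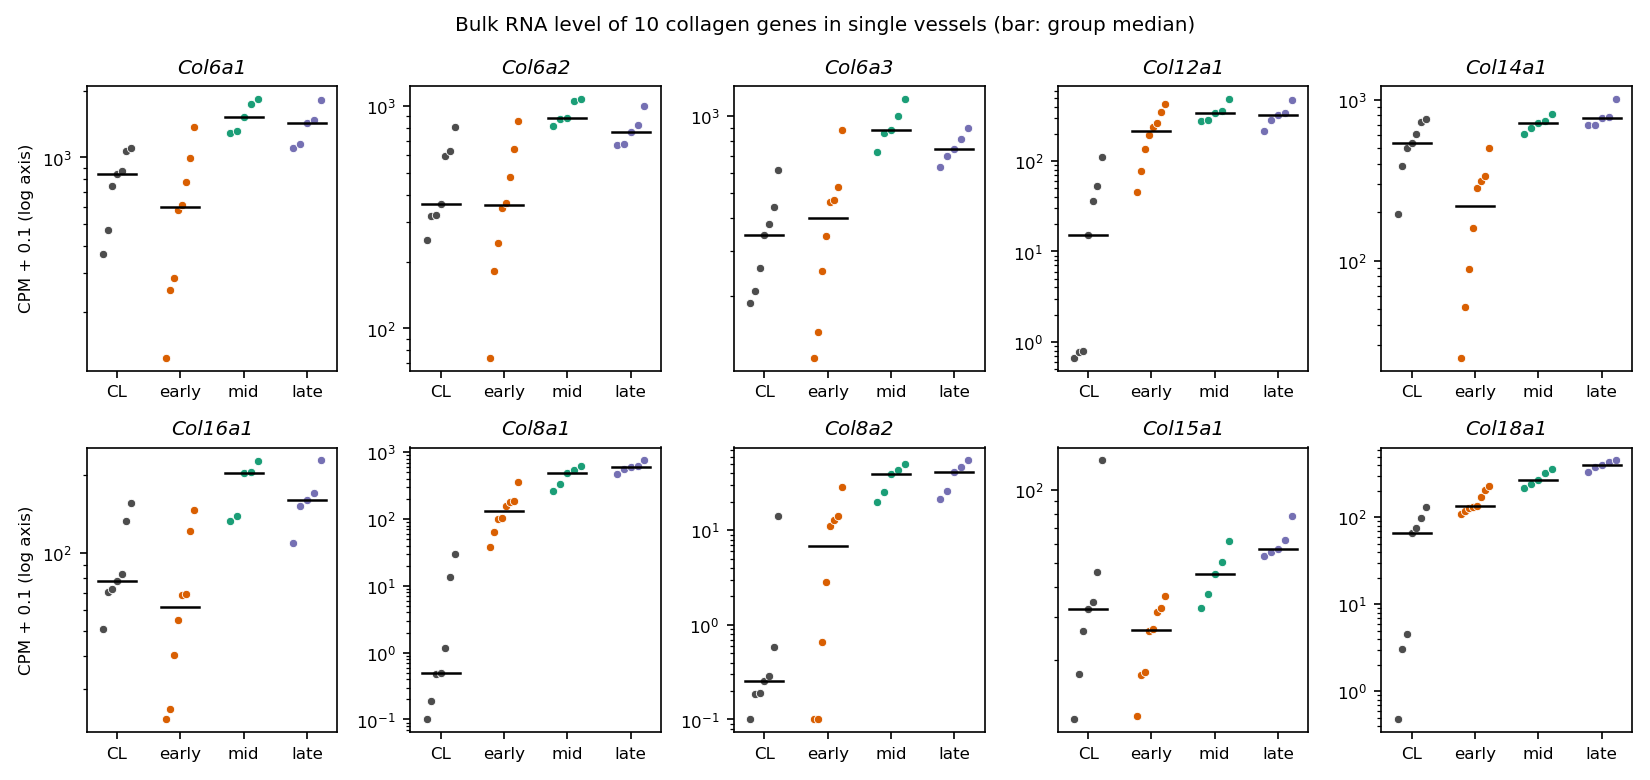
Bulk RNA level of each gene in CPM plus 0.1 on a log axis, with a point for each vessel and a bar at the group median; CL stands for contralateral veins (7), beside 8 early, 5 mid, and 5 late AVFs. *Col8a1* in AVFs (38.5 to 757 CPM) lies above all contralateral veins (0 to 29.5 CPM), and *Col14a1* is lowest in early AVFs (24.8 to 499 CPM).

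The fibril-associated chains split. *Col12a1* (ENSMUSG00000032332, chromosome 9, 79598991 to 79718831, minus strand) encodes collagen XII, known from tendon, ligament, and healing tissue under load. It ranged from 0.562 to 110 CPM in contralateral veins, with a median of 15.0, and from 45.1 to 428.1 CPM in early AVFs, with a median of 218. Contralateral veins 28, 31, and 34 had 0.56, 0.70, and 0.68 CPM, and 2848, 2216, and 1708 tested genes at 0. Vein 632, with 1988 at 0, had 53.2 CPM. The part of such gaps in the changes below was not tested. Mid AVFs had 362, 287, 278, 338, and 489 CPM, and late AVFs 214, 338, 479, 286, and 326 CPM. Mid and late AVFs lay above all contralateral veins, while the ranges of early AVFs and contralateral veins overlapped, vein 27 being the highest of the veins. *Col12a1* changed by 2.81 in early (SE 0.79, adjusted *p* = 0.0103, not called), by 3.50 in mid (SE 0.85, adjusted *p* = 0.00668), and by 3.41 in late AVFs (SE 0.85, adjusted *p* = 0.00884), on the log2 scale. The mid call was lost without contralateral vein 35 or 633 or without any 1 of the 5 mid AVFs (adjusted *p* up to 0.0171). The late call was lost in 17 of 25 such fits, with adjusted *p* up to 0.0233, and kept without contralateral veins 27, 28, 31, or 34 or early AVFs 3, 5, 6, or 7. Under other settings, the mid call ended with females only or only the groups compared (adjusted *p* up to 0.154). The late call ended under these, with males only, and with a sex term (adjusted *p* up to 0.16).

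*Col14a1* (ENSMUSG00000022371, chromosome 15, 55307750 to 55520803, plus strand) encodes collagen XIV, which is known to regulate fibril growth in resting connective tissue. Contralateral veins had 195 to 760 CPM (median 540), and early AVFs 24.8 to 499 CPM (median 220). Mid AVFs had 608, 662, 738, 716, and 811 CPM, and late AVFs 778, 1010, 764, 693, and 693 CPM. Every mid and late AVF lay above every early AVF, while early AVFs and contralateral veins overlapped. The log2 fold change from early to late AVFs was 1.85 (SE 0.44, adjusted *p* = 0.00965) and from early to mid AVFs 1.69 (SE 0.44, adjusted *p* = 0.0260, not called). Early AVFs against contralateral veins gave −1.28 (SE 0.41, adjusted *p* = 0.0244, not called). The call between late and early AVFs was narrow. It was lost in 19 of 25 fits that left out a library, with adjusted *p* up to 0.0318, and kept without contralateral veins 28 or 35 or early AVFs 1, 4, 7, or 10. It was also lost in 9 of the 12 other settings (adjusted *p* up to 0.406). The ratio of *Col14a1* to *Col12a1* per kilobase was 14.3 to 2934 in contralateral veins, 0.804 to 3.15 in early, 3.60 to 5.76 in mid, and 3.47 to 7.90 in late AVFs. All 18 AVFs thus lay below all 7 contralateral veins in this ratio, which was computed after the values had been seen and is given with no test.

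*Col16a1* (ENSMUSG00000040690, chromosome 4, 130047840 to 130099283, plus strand), the third fibril-associated chain, had 51.0 to 156 CPM in contralateral veins (median 78.1) and 22.7 to 146 CPM in early AVFs (median 61.9). Mid AVFs had 139, 132, 204, 205, and 225 CPM, and late AVFs 170, 227, 152, 109, and 159 CPM. These ranges overlapped those of the earlier groups. The log2 fold change from early to mid AVFs was 1.40 (SE 0.36, adjusted *p* = 0.0251), and it was not called in any comparison.

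The 3 collagen VI chains followed a similar course, with fitted changes near 0 in early AVFs and above 0 later, of which only that of *Col6a3* in mid AVFs was called. *Col6a1* (ENSMUSG00000001119, chromosome 10, 76708792 to 76726168, minus strand) lies near *Col6a2* (ENSMUSG00000020241, chromosome 10, 76595762 to 76623630, minus strand), and *Col6a3* (ENSMUSG00000048126, chromosome 1, 90765923 to 90843971, minus strand) encodes the longest chain. *Col6a1* had 367 to 1102 CPM in contralateral veins (median 839) and 124 to 1374 CPM in early AVFs (median 595). In mid AVFs it had 1318, 1292, 1523, 1742, and 1838 CPM, and in late AVFs 1428, 1821, 1479, 1108, and 1149 CPM. The mid and late values lay above all contralateral veins, the lowest late AVF at 1108 CPM only narrowly. *Col6a3* had 188 to 618 CPM in contralateral veins (median 346) and 115 to 879 CPM in early AVFs (median 402). In mid AVFs it had 726, 858, 879, 1000, and 1162 CPM, and in late AVFs 633, 899, 810, 746, and 695 CPM. Here also no mid or late AVF overlapped the contralateral veins. *Col6a2* had 251 to 803 CPM in contralateral veins, 73.6 to 856 in early, 810 to 1077 in mid, and 668 to 1000 in late AVFs.

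Of these chains, *Col6a3* was called in mid AVFs, at 1.41 on the log2 scale against contralateral veins (SE 0.36, adjusted *p* = 0.00983). This call was lost in 16 of 25 fits that left out a library, with adjusted *p* up to 0.0321, and kept without contralateral veins 27 or 34, early AVFs 1, 3, 5, 6, 7, or 10, or late AVF 17. It also ended with a sex term, with the sexes fitted apart, and without both contralateral veins 27 and 633 (adjusted *p* up to 0.169). In late AVFs *Col6a3* was at 1.12 (SE 0.36, adjusted *p* = 0.0431). *Col6a1* was at 0.98 in mid (SE 0.39, adjusted *p* = 0.0989) and 0.84 in late AVFs (SE 0.39, adjusted *p* = 0.173), and *Col6a2* at 1.00 (SE 0.38, adjusted *p* = 0.0847) and 0.75 (SE 0.38, adjusted *p* = 0.227). In early AVFs the 3 chains lay between −0.32 and 0.19, with SE of 0.32 to 0.35. *Col6a6*, which can take the place of the α3 chain, went from 84.2 ± 54.3 CPM (SD, n = 7) in contralateral veins to 3.40 ± 4.28 CPM in early AVFs (n = 8), or −4.63 on the log2 scale (SE 0.88, adjusted *p* = 0.000335), while *Col6a3* did not pass the test there. Per kilobase, *Col6a3* stood at 0.109 to 0.205 of *Col6a1* in contralateral veins, 0.196 to 0.338 in early, 0.202 to 0.243 in mid, and 0.162 to 0.246 in late AVFs, so that the ranges of contralateral veins and AVFs overlapped at their edges.

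The multiplexins differed from each other in the veins that had not been operated on. *Col18a1* (ENSMUSG00000001435, chromosome 10, 77052178 to 77166548, minus strand), the source of endostatin, had 0.375 to 130 CPM in contralateral veins (median 66.8). Contralateral veins 28, 31, and 34, which were also lowest for *Col12a1*, had 0.375, 4.465, and 2.95 CPM. They had 2848, 2216, and 1708 tested genes at 0, whereas vein 632, with 1988 at 0, had *Col18a1* at 97.8 CPM. The part of such gaps in the changes below was not tested. Early AVFs had 109 to 231 CPM (median 134), mid AVFs 243, 219, 324, 270, and 358 CPM, and late AVFs 431, 452, 396, 331, and 380 CPM. Mid and late AVFs lay above all contralateral veins, and late AVFs also above all early ones. The log2 fold change was 1.51 in early (SE 0.63, adjusted *p* = 0.0867), 2.39 in mid (SE 0.70, adjusted *p* = 0.0231), and 2.89 in late AVFs (SE 0.71, adjusted *p* = 0.00755), and only the last was called. That call was lost without contralateral veins 27 or 35, mid AVFs 13 or 14, or any 1 of the 5 late AVFs (adjusted *p* up to 0.0167). It also ended when the sexes were fitted apart or when the groups compared were fitted alone (adjusted *p* up to 0.106).

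*Col15a1* (ENSMUSG00000028339, chromosome 4, 47208161 to 47313167, plus strand) had 11.3 to 132 CPM in contralateral veins (median 32.4) and 11.7 to 36.5 CPM in early AVFs (median 26.5). Mid AVFs had 61.7, 37.4, 45.1, 32.6, and 50.4 CPM, and late AVFs 57.1, 62.4, 53.7, 77.9, and 55.3 CPM. Late AVFs lay above all early AVFs, and contralateral vein 28, at 132 CPM, above every other library. The log2 fold change from early to late AVFs was 1.29 (SE 0.42, adjusted *p* = 0.0643), and *Col15a1* was not called in any comparison. It shares 14 exon bases with the antisense gene *Gm12426*, and no other member shares exon bases with another gene.

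**Figure D2:**
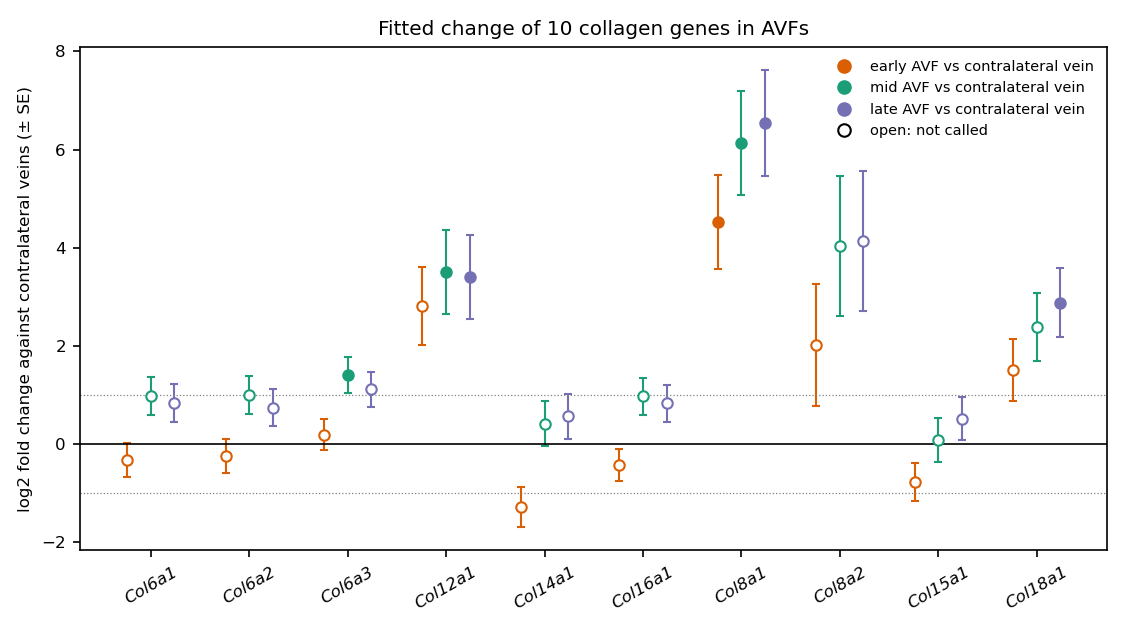
Fitted log2 fold change of each gene in early, mid, and late AVFs against contralateral veins, with bars of 1 SE; filled points were called and open points were not, and dotted lines mark a log2 fold change of 1 in each direction. *Col8a1* rises from 4.52 to 6.55, and all 10 genes are above 0 in mid and late AVFs.

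Across the set, 1 of 10 members was called in early AVFs against contralateral veins, *Col8a1*, against 12.6% of all genes tested in either direction and 6.17% called higher. In mid AVFs 3 of 10 were called, *Col6a3*, *Col8a1*, and *Col12a1*, all higher, against 6.05% in either direction and 2.74% higher. In late AVFs it was also 3 of 10, *Col8a1*, *Col12a1*, and *Col18a1*, against 5.33% in either direction and 2.49% higher. All 10 fitted changes were positive at both of these times, with medians of 1.21 and 0.98 where the medians of all genes were −0.10 and −0.09. In early AVFs 5 of 10 were positive, with a median of −0.02 against −0.01 for all genes. Every AVF of the group lay above every contralateral vein for 1, 7, and 6 members at the early, mid, and late time points, which was the case for 4.47%, 7.32%, and 6.25% of all genes. These comparisons share the contralateral veins.

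Between AVFs, 1 member was called in late against early AVFs, *Col14a1*, against 3.01% of genes in either direction and 0.726% called higher, and for 4 members no late AVF overlapped or fell below the early ones (7.16% of all genes). With 1 library left out, 32 to 549 genes and 0 to 2 members were called in this comparison, in place of 381 genes and 1 member. In mid against early AVFs edgeR called 0 of 10 members and 0.00789% of all genes, with 5 members at an unadjusted *p* under 0.05 and 1 member, *Col14a1*, without overlap (3.31% of all genes). DESeq2 and edgeR's likelihood ratio test each called 2 members there, *Col14a1* and *Col16a1*, and 474 and 356 of the 12673 genes. The edgeR share is not firm, since leaving out 1 library gave 0 to 305 genes and 0 to 4 members in place of 1 gene and 0 members. The fitted changes of all 10 were positive in both comparisons with early AVFs, with a median of 1.27 in each. In late against mid AVFs 0 of 10 members and 0% of all genes were called, 0 members had an unadjusted *p* under 0.05, and neither DESeq2 nor the likelihood ratio test called a member. The changes there ran from −0.29 in *Col6a3* to 0.49 in *Col18a1*.

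Early AVFs varied more than mid and late AVFs for these genes, with coefficients of variation of 28.7% for *Col18a1* to 115% for *Col8a2*, against 10.9% to 36.9% in mid and late AVFs. Contralateral veins varied from 35.8% for *Col6a1* to 244% for *Col8a2*, and more than early AVFs for *Col8a1*, *Col8a2*, *Col12a1*, *Col15a1*, and *Col18a1*. Early AVFs 5, 6, and 7 were among the 3 lowest libraries of the group for 9, 8, and 9 of the 10 members, and early AVF 10 was the highest for 7. Without early AVFs 5 and 6, the 2 deepest libraries, the counts against contralateral veins were again 1, 3, and 3 in the order of time, and 0 members were called in late against early AVFs. Without contralateral veins 27 and 633, those with the most genes detected, 3, 4, and 4 members were called in early, mid, and late AVFs, while the genes called went from 1599, 767, and 676 to 2043, 1380, and 1296. Both alternatives were chosen after the data had been seen.

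Per kilobase of exon, *Col6a1* had the highest mean in every group, from 142 ± 95.5 CPM per kb (SD, n = 8) in early AVFs to 352 ± 56.0 in mid AVFs (n = 5). In contralateral veins it was followed by *Col14a1* (75.7 ± 28.0, n = 7) and *Col6a2* (56.4 ± 24.7), which did not differ beyond their spread. *Col8a1* ranked 9 of 10 there, at 0.823 ± 1.44 CPM per kb. In late AVFs it ranked 4 of 10, at 77.2 ± 13.2 CPM per kb (n = 5), above *Col6a3* (63.2 ± 8.59) by more than the larger SD and below *Col6a2* (94.6 ± 16.2). In early AVFs no 2 neighbors in the order of levels differed by more than the larger SD. Setting means against SDs leaves aside that the chains were measured in the same libraries. Within single libraries, *Col6a2* per kilobase stood at 0.3002 to 0.4465 of *Col6a1* in the 8 early AVFs. *Col8a2* was lowest in contralateral veins, early AVFs, and late AVFs, and *Col15a1* in mid AVFs, and in late AVFs these 2 did not differ beyond their spread.

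The 10 fibrillar collagen chains that were tested included 4, 5, and 3 called higher at the early, mid, and late time points against contralateral veins, and 0 lower, with medians of 1.35, 1.81, and 1.44. The shares of all genes called higher were 6.17%, 2.74%, and 2.49%, and those called in either direction 12.6%, 6.05%, and 5.33%. The gene named by the rule, *Col2a1*, a cartilage collagen, had 0 counts in all 7 contralateral veins and 3.76 ± 4.79 CPM in early AVFs (n = 8). If 3 counts are allowed over the contralateral group, this was at least 214-fold higher by read depth alone. The contralateral veins had 363 to 2848 tested genes at 0, so read depth may not bound the level of *Col2a1* there. Of 14 basement membrane chains, 1 was called lower in early AVFs, the laminin chain *Lamb2* (log2 fold change −2.79, SE 0.35, adjusted *p* = 1.74e-06), and 2 higher in late AVFs, of which *Col4a2* changed more (2.39, SE 0.49, adjusted *p* = 0.00196). Of 6 tested nonfibrillar chains outside the set, *Col6a6* was the only one called in early AVFs, and 0 were called in mid or late AVFs.

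The shares of all genes called in either direction were 12.6%, 6.05%, and 5.33% in early, mid, and late AVFs, and the counts below stand beside these. Among 12 collagen receptors, 2 were called higher and 2 lower in early, 1 higher and 1 lower in mid, and 1 higher in late AVFs. *Lair1*, an inhibitory collagen receptor of leukocytes, changed most among the receptors called, by 4.41 in early AVFs (SE 0.70, adjusted *p* = 4.13e-05) and by 3.21 late (SE 0.70, adjusted *p* = 0.00297). The 8 macrophage markers summed to 383 to 1370 CPM in contralateral veins and 1950 to 7290 CPM in early AVFs, and their part in this change was not tested. Among 12 collagen partners, 2 were called higher and 3 lower in early, 5 higher and 1 lower in mid, and 4 higher in late AVFs. *Dcn*, a small proteoglycan of the fibril surface, fell by 2.71 on the log2 scale in early AVFs (SE 0.32, adjusted *p* = 5.44e-07), and *Fn1*, fibronectin, rose by 2.41 in late AVFs (SE 0.30, adjusted *p* = 4.22e-06). Of 13 genes of collagen folding and modification, 2 were called higher in early and 1 in late AVFs. *P4ha3*, a prolyl 4-hydroxylase subunit, rose by 6.60 (SE 0.98, adjusted *p* = 1.52e-05) and 6.86 (SE 1.01, adjusted *p* = 4.62e-05). Of 12 proteases that can release collagen fragments, 5 were called higher and 1 lower in early AVFs, and 4 higher in mid and in late AVFs. Among those called in early and in late AVFs the change was largest for *Mmp12*, macrophage elastase, at 5.404 (SE 0.96, adjusted *p* = 0.000152) and 6.40 (SE 1.03, adjusted *p* = 0.000156).

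The single-cell tables held 26438 barcodes, of which 16893 passed the filters: 6319 from contralateral veins, 4753 from early AVFs, and 5821 from late AVFs, with median depths of 2751, 8951, and 15420 UMIs. At most 6 of the kept barcodes were shared between any 2 libraries. With a single library per condition nothing could be tested, and the Poisson intervals at 95% cover counting error only. Cells were clustered without the 10 genes and without the markers, and clusters were named from the markers. The fibroblast-like class held 1835 contralateral, 376 early, and 1920 late cells. Most of its contralateral cells (1561) came from cluster 2, led by *Inmt* and *Dcn*, and most of its early (351) and late (1609) cells from cluster 0, led by *Dcn* and *Serping1*. The mural-like class, of smooth muscle cells and pericytes, held 37, 229, and 507 cells, and the endothelial-like class 825, 69, and 75. Shares of cells were not compared, since digestion and depth can set them. Unnamed clusters held 1397 cells, and the larger of them, of low depth, mixed fibroblast with leukocyte genes.

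In summed UMIs per class, named classes of 20 or more cells in a library were ranked. The fibroblast-like class had the highest level of 7 of the 10 members in contralateral veins, 7 in early AVFs, and 5 in late AVFs. In late AVFs the 24 Schwann-like cells were highest for *Col12a1*, *Col15a1*, and *Col16a1*. The 10 in early AVFs were too few to be ranked and had *Col16a1* at 495 CPM (interval 264 to 847), against 218 CPM in fibroblast-like cells. The collagen VI chains and *Col14a1* were highest in the fibroblast-like class in all 3 libraries. So was *Col8a2*, but its interval overlapped that of the next class in contralateral veins and early AVFs. *Col6a1* was at 1174 CPM (interval from 1156) in contralateral fibroblast-like cells and 284 CPM in mural-like cells. In macrophage-like cells, which stand here for the background of free RNA, it was at 24.4, 19.1, and 21.8 CPM in the 3 libraries. *Col14a1* was at 1382 CPM in contralateral, 1118 CPM in early, and 1377 CPM in late fibroblast-like cells, against 41.6, 19.2, and 38.8 CPM in macrophage-like cells. *Col8a2* was at 3.10, 21.6, and 14.1 CPM and came in 88.9%, 84.4%, and 96.0% from fibroblast-like cells. Such shares of UMIs, here and below, also depend on how many cells of each class were captured and on their depth.

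*Col18a1* and *Col15a1* had another distribution. *Col18a1* was highest in mural-like cells of contralateral veins (425 CPM) and late AVFs (1109 CPM), and in early AVFs stood at 911 CPM in endothelial-like and 859 CPM in mural-like cells, whose intervals overlapped. Fibroblast-like cells had 62.9, 84.3, and 64.6 CPM and gave 57.0%, 13.8%, and 17.1% of its UMIs in the 3 libraries. With 1835, 376, and 1920 fibroblast-like cells beside 37, 229, and 507 mural-like ones, these shares were not compared between libraries. In endothelial-like cells *Col18a1* was 8.53 times higher in early AVFs than in contralateral veins (599 and 319 UMIs) and 4.95 times higher in late AVFs. *Col15a1* was highest in fibroblast-like cells of contralateral veins, at 341 CPM, and lower in those of early (124 CPM) and late AVFs (138 CPM). In mural-like cells it was at 56.7, 311, and 282 CPM, and in endothelial-like cells at 55.2, 449, and 113 CPM. The contralateral mural-like value rests on 20 UMIs in 37 cells.

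**Figure D3:**
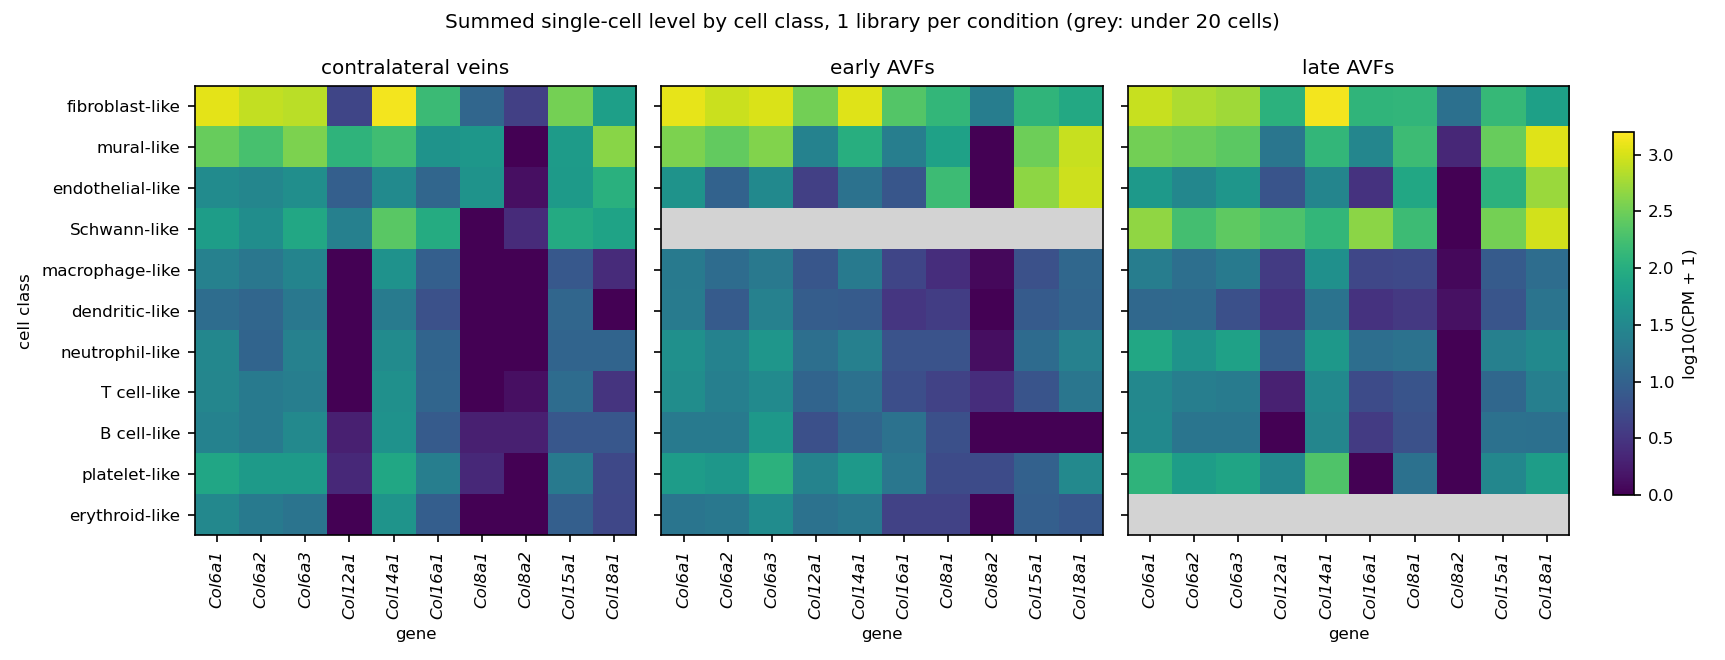
Summed single-cell level of each gene by cell class, as log10 of CPM plus 1, with a panel for each of the 3 libraries; grey marks classes with under 20 cells. Collagen VI chains and *Col14a1* are brightest in the fibroblast-like class (*Col6a1* at 1174, 1215, and 850 CPM), and *Col18a1* in mural-like and endothelial-like cells of AVFs (859 and 911 CPM in early AVFs).

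Within fibroblast-like cells the members separated into those that were near absent in contralateral veins and those that were already high. *Col12a1* was at 3.72 CPM (48 UMIs) in contralateral, 329 CPM in early, and 112 CPM in late cells, 88.6 and 30.04 times higher than in contralateral cells. *Col8a1* was at 10.5 CPM (136 UMIs), 131 CPM, and 127 CPM, 12.4 and 12.1 times higher. *Col8a2* was 6.98 and 4.56 times higher. *Col6a1* stood at 1.04 and 0.724 times its contralateral level, *Col6a2* at 1.10 and 0.804, *Col6a3* at 1.40 and 0.754, *Col14a1* at 0.809 and 0.996, *Col16a1* at 1.45 and 0.811, *Col18a1* at 1.34 and 1.03, and *Col15a1* at 0.364 and 0.404. The study's methods give other mean harvest days for the single-cell AVFs than for the bulk AVFs, and no single-cell library was made of mid AVFs. The members with the largest ratios here, *Col12a1* and *Col8a1*, were among those called in bulk vessels against contralateral veins, *Col12a1* in mid and late AVFs only. *Col8a2*, with the next largest ratios, was not called. *Col6a3* (called in mid AVFs) and *Col18a1* (called in late AVFs) had ratios of 1.40 and 0.754 and of 1.34 and 1.03. The lower fitted level of *Col14a1* in early bulk vessels, which was not called, stood beside a ratio of 0.809 within these cells. The fibroblast marker sum in bulk was 3070 CPM at the median in early AVFs, against 15700 in contralateral veins. Within fibroblast-like cells the same 8 markers summed to 28070 CPM in contralateral, 7740 in early, and 16240 in late cells. The part of cell number and of RNA per cell in the bulk sum was not tested, nor was the cause of the lower *Col14a1* level. The fibroblast-like class did not have the highest *Col8a1* level in any of the 3 libraries, though it gave 47.55%, 63.8%, and 72.5% of the *Col8a1* UMIs. These shares also depend on the cells captured and were not compared between libraries. In contralateral veins *Col8a1* was at 48.2 CPM in mural-like (17 UMIs) and 42.5 CPM in endothelial-like cells (127 UMIs). In early AVFs endothelial-like cells had 154 CPM (101 UMIs), 3.61 times their contralateral level, with an interval that overlapped that of fibroblast-like cells, and in late AVFs mural-like cells had 156 CPM. *Col12a1* was at 119 CPM in the 37 contralateral mural-like cells and at 25.1 and 17.0 CPM in those of early and late AVFs. The contralateral value rests on 42 UMIs found in 10.8% of those 37 cells. Small Schwann-like groups in late AVFs (24 cells) had *Col16a1* at 437 CPM, *Col18a1* at 944 CPM, and *Col12a1* at 201 CPM. Macrophage-like cells had *Col8a1* at 0, 1.64, and 4.14 CPM and *Col12a1* at 0, 6.28, and 2.58 CPM.

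Fibroblast-like cells were clustered again into 12 subclusters without the members and the subtype markers. The largest, the unnamed subcluster 0, had 668 of its 722 cells from late AVFs, with *Col8a1* at 10.0 CPM and *Col12a1* at 38.7 CPM in these late cells. Late cells of Pi16 adventitial-like subclusters 4 and 8 had *Col8a1* at 56.0 and 19.2 CPM. The class levels of late cells above are thus averages over unlike subclusters. Subcluster 1, late-like by *Thbs4*, *Cilp*, and *Comp*, had 517 of its 583 cells from late AVFs and the highest *Col8a2*, at 51.6 CPM, with *Col8a1* at 379 CPM and *Col12a1* at 233 CPM. Its 62 early cells had *Col8a1* at 366 CPM and its late cells at 382 CPM. Subcluster 6, activated-like by *Tnc* and *Cthrc1* and led by the acute-phase gene *Saa3*, had 253 of 297 cells from early AVFs and the highest *Col12a1*, at 413 CPM, with *Col8a1* at 172 CPM. Its 43 late cells had *Col8a1* at 554 CPM, against 104 CPM in its early cells. Subclusters 2 and 3, quiescent-like and almost all from contralateral veins, had *Col8a1* at 0 and 3.35 CPM and *Col12a1* at 3.02 and 2.05 CPM, with *Col6a1* at 1460 and 1155 CPM and *Col14a1* at 1297 and 1722 CPM. The upper bound of the interval for the 0 was 0.928 CPM.

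The 3 Pi16 adventitial-like subclusters differed in *Col15a1*. Subcluster 9 (144 of 154 cells from contralateral veins) and subcluster 8 (215 of 222 from late AVFs) had 16.1 and 13.6 CPM, against 315 and 376 CPM in quiescent-like subclusters 2 and 3. Subcluster 4, led by *Saa3* and *Hp* rather than by its subtype markers, had 70.8 CPM. *Col14a1* was high in all 3, at 1170, 1584, and 1488 CPM. The unnamed subcluster 10, led by *Apod*, *Sfrp5*, and *Myoc*, held 29 cells, of which 27 came from contralateral veins. It had the highest *Col15a1*, at 2382 CPM (675 UMIs), together with *Col8a1* at 438 CPM, *Col18a1* at 304 CPM, and *Col14a1* at 95.3 CPM. Of the 136 *Col8a1* UMIs in contralateral fibroblast-like cells, 102 came from this subcluster. Without it, an alternative chosen after the data had been seen, *Col8a1* was at 2.68 CPM in those cells, and the early and late levels were 48.8 and 47.4 times higher. *Col15a1* was then at 298 CPM, with ratios of 0.415 and 0.461.

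**Figure D4:**
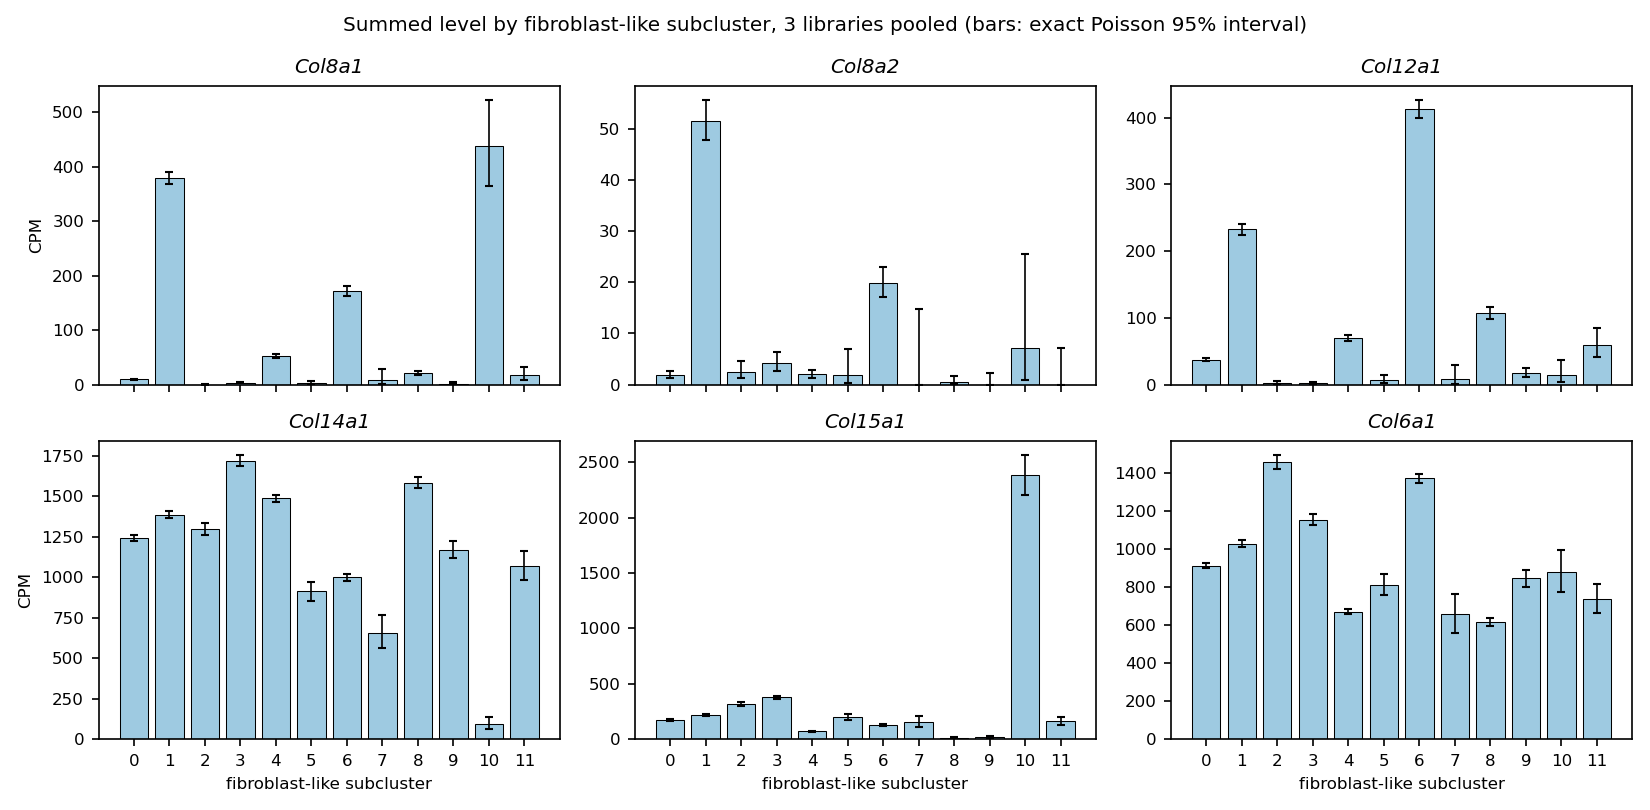
Summed level of 6 genes in the 12 fibroblast-like subclusters, in CPM over the 3 libraries, with exact Poisson intervals at 95%; axes start at 0 and differ between genes. *Col8a2* peaks in late-like subcluster 1 (51.6 CPM), *Col12a1* in activated-like subcluster 6 (413 CPM), and *Col15a1* in the unnamed subcluster 10 (2382 CPM).

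Over the 25 bulk libraries, the gene outside the set whose log2 CPM followed a member most closely was *Col3a1* for *Col6a1* (Pearson's r = 0.969) and *Col6a2* (0.930), *Fbn1* for *Col6a3* (0.919), *Il10ra* for *Col8a1* (0.956), *Cemip* for *Col8a2* (0.935), *F2r* for *Col12a1* (0.964), *Tgfb3* for *Col14a1* (0.949), *Ccnd2* for *Col15a1* (0.829), *Fmod* for *Col16a1* (0.907), and *Dock1* for *Col18a1* (0.967). These values describe a likeness of pattern over libraries that share groups and differ in the number of genes detected, and carry no test. In a fit with sex, the change from contralateral veins to AVFs did not differ between males and females at an adjusted *p* under 0.05 for any of the 10 members, against 76 of the 12673 genes. The lowest adjusted *p* was 0.298, for *Col8a2*, with 6.90 in females and 1.52 in males. Males had 2 contralateral veins, and 1 of them was vein 633.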

How the data were processed

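Bulk RNA came from single vessels and was sequenced as poly(A)-selected, ultra-low-input libraries. The bulk table that the authors deposited holds whole read counts of each gene in 25 libraries, without normalization. The deposited tables of the 3 single-cell libraries hold UMI counts of each gene and barcode, made by Cell Ranger, for which the headers give version 6.0.2. The submitters' processing notes also name STAR and the builds mm10 and GRCm38. Of the 56980 bulk identifiers, 32210 were named from the single-cell gene lists and 19962 from a reference table of gene names, and 4808 had no name. Coordinates and exon lengths were taken from GENCODE M21 on GRCm38, while some bulk identifiers belong to a later annotation.

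Genes were tested if their DESeq2-normalized count averaged 100 or more. Library sizes were scaled by TMM, and edgeR 4.0.16 (R 4.3.3) fitted a mean per group to all 25 libraries (quasi-likelihood, Benjamini–Hochberg over all genes tested). A call needed an adjusted *p* under 0.01 and a log2 fold change of 1 or more in size. The study's methods give 0.05, which was tried as an alternative. Alternatives also covered DESeq2 1.42.0, the likelihood ratio test, other filters, sex, pairwise fits, and each library left out. The script was tested on simulated data. A member's most alike gene was that with the highest Pearson's r of log2 CPM (prior count 2). Named genes were the 10 members, the called gene with the largest change in each list in early and in late AVFs against contralateral veins, and these most alike genes. The members and the gene lists were chosen with earlier results of these data known. The labels do not say which mouse gave which vessel, so *p* values measure the spread between these libraries.

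Filters kept barcodes that had between 200 and 6000 genes and no more than 10% of counts from mitochondria. These were scaled to 10000, and clustered on 2000 variable genes, 12 principal components, and 20 neighbors (leidenalg 0.10.2, resolution 0.5; scanpy 1.11.5). A cluster took the name of the marker list with the highest mean log2 fold over the median of the other clusters (10 CPM added), provided that this mean reached 0.5, that 3 or more markers rose 2-fold and had a UMI in 10% of cells, and that markers of other classes did not outnumber its own in the top 10 genes. For shallow clusters, an own marker among these was required. Doublets were kept in the main clustering. Scrublet marked 0% of barcodes in contralateral veins, 0.0421% in early AVFs, and 2.06% in late AVFs, so it did not work in the first 2 libraries. UMIs were summed per library and class.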

Additional observations from a re-analysis of the deposited data

Results flagged for a closer look

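Within groups of 4 to 10 libraries, 4 of 40 combinations of gene and group held a library that stood apart by Dixon's test at 95%, where chance alone gives about 1 in 20. In early AVFs, library 10 had *Col8a1* at 357.8 CPM, against 186.5 in the next highest. Contralateral vein 633 had *Col8a2* at 14.0 CPM, against 0.491. Late AVF 17 had *Col14a1* at 1010 CPM, against 777.5. Contralateral vein 28 had *Col15a1* at 132 CPM, against 46.1. The causes of these values were not tested.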

How the results depend on the processing

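Each member's change in 5 comparisons was recomputed under 12 other settings and with each library left out. With a library left out, 4 of 1250 values changed sign, and under the other settings 5 of 600 did. Against contralateral veins, 1, 3, and 3 members were called in early, mid, and late AVFs, and 1 in late against early AVFs. The genes called in all moved with these counts and stand in parentheses. In early AVFs the 1 member (1599 genes) became 3 with DESeq2 (2440), at an adjusted *p* under 0.05 (2520), or without contralateral veins 27 and 633 (2043), 2 with the likelihood ratio test (2166), filterByExpr (3803 of 20076 tested), or no filter (3938 of 37829), and 0 with females only (327) or only the groups compared (632). In mid AVFs the 3 (767) became 5 with DESeq2 (1418), 1 with males only (292) or only the groups compared (339), and 0 with females only (192). There were 2 with a sex term (726). There were 4 with the likelihood ratio test (1158), at an adjusted *p* under 0.05 (1421), or without contralateral veins 27 and 633 (1380). In late AVFs the 3 (676) became 0 with females only (173), males only (233), or only the groups compared (223). There were 2 with a sex term (626). There were 4 with DESeq2 (1294), at an adjusted *p* under 0.05 (1304), or without contralateral veins 27 and 633 (1296). In mid against early AVFs the 0 (1) became 2 with DESeq2 (474) or the likelihood ratio test (356) and 4 at an adjusted *p* under 0.05 (482). In late against early AVFs the 1 (381) became 3 with only the groups compared (587), 2 at an adjusted *p* under 0.05 (795), and 0 with DESeq2 size factors (339), filterByExpr (259), no filter (208), a sex term (315), females only (0), males only (2), without early AVFs 5 and 6 (105), or without contralateral veins 27 and 633 (261). With 1 library left out, the counts ran from 1 to 2 in early, 1 to 3 in mid, and 1 to 3 in late AVFs, 0 to 4 in mid against early, 0 to 2 in late against early, and 0 to 0 in late against mid AVFs. Values that changed sign were small. *Col6a2* in early AVFs became 0.040 with females only and 0.022 without early AVFs 5 and 6, and in late AVFs −0.14 with males only. *Col6a3* in early AVFs became −0.16 without early AVF 10 (and was 0.41 at most with a library left out). *Col15a1* in mid AVFs became −0.072 with females only, −0.10 without contralateral veins 27 and 633, −0.16 without contralateral vein 35, −0.05 without vein 633, and −0.05 without mid AVF 9 (and 0.72 at most). The causes were not tested. The number of members highest in fibroblast-like cells became 8 in early AVFs with looser filters on cells. The fit of males rests on 2 contralateral veins. No paired analysis was possible because library numbers are not shared between groups.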
